A study of Mus musculus with 15 samples.

Results

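CGRP, substance P and the granins are neuropeptides and vesicle proteins that sensory neurons pack together into dense-core vesicles. The genes described here are the 8 that encode them: Calca and Calcb for the α and β forms of calcitonin gene-related peptide (CGRP), Tac1 for substance P, and Vgf, Scg2, Scg3, Chga and Chgb for granins. They were chosen by gene symbol, with earlier results of these data known, and 7 of the 8 were measured, among 19938 genes in all. No named probe set of Calca was analysed here, so the reporter sort on its promoter was not checked on its own transcript. Each of the other 7 genes was read by 1 probe set, a group of short probes to 1 gene on the array.

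The RNA came from large sensory neurons (over 26.9 µm across) of mouse dorsal root ganglia at lumbar levels 2 to 5, on 15 Affymetrix arrays in 5 groups of 3 biological replicates. All mice were transgenic C57BL/6 animals carrying green fluorescent protein (GFP) under the CGRP promoter. All received the retrograde tracer wheat germ agglutinin-AF647, in the gastrocnemius muscle or the saphenous nerve, 5 days before they were killed. Skin neurons were sorted as GFP-positive and formed 2 groups, called CFA paw and saline paw after the injection; CFA, complete Freund's adjuvant, is an oil emulsion of dead mycobacteria that inflames tissue. Muscle neurons were sorted as GFP-negative and formed 3 groups named in the same way: acid muscle, CFA muscle and, as their control, saline muscle. Tissue, tracer site, injection site and the GFP sort differ together between skin and muscle groups and cannot be told apart. The labels used here give no age, no dose and no statement on pooling of animals. A lower level in such sorted samples cannot be told apart from a smaller number of cells that express the gene.

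CGRP and substance P are released from the endings of peptidergic nociceptors, where CGRP dilates blood vessels and substance P makes them leak, the basis of neurogenic inflammation. The granins are acidic proteins of the same vesicles. Some help to form the vesicle and to sort its cargo, and several are cut into active peptides themselves. Prohormone convertases and trimming enzymes inside the vesicle turn the precursors into peptides.

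The promoters of these genes are shown first because the cAMP response element, the site of CREB-type factors, is a familiar feature of peptide genes and because the pair of members that hold it whole differed in what was measured. Of the 8 genes, 6 had an entry among RefSeq promoters (build GRCm38.p6). In the 250 bases before the start, 2 of these 6, Scg2 and Chgb, carried the whole element TGACGTCA, which is the same on both strands. It begins 68 bases before the Scg2 start and 72 bases before the Chgb start. Over all 32851 promoters, 1.55% held it in a window of the same length. The half-site TGACG, searched on both strands and contained in the whole element, was present in all 6 and in 17.8% of all promoters. Tac1 has it 197 and 43 bases before the start, Calca at 65, Scg3 at 30 and Chga at 44. The sequences below run 5′ to 3′ on the gene's strand, with the element or half-site (CGTCA on the opposite strand) in capitals.
Scg2, chr1:79440027-79440276, minus strand: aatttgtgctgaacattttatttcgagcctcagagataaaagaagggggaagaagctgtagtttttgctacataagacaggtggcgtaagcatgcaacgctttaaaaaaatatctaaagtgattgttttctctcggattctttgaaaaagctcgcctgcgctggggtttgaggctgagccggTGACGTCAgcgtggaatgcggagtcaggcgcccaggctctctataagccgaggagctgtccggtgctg
Chgb, chr2:132781392-132781641, plus strand: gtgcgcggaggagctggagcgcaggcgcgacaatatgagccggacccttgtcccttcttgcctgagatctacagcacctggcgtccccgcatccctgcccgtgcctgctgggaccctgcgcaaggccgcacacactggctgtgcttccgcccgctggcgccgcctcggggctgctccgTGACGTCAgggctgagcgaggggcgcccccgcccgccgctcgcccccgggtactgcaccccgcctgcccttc
Tac1, chr6:7554811-7555060, plus strand: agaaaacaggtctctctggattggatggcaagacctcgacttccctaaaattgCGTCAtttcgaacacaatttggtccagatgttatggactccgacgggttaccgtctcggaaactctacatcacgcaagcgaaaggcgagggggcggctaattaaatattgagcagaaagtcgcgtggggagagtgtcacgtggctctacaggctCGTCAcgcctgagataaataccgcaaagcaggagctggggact
Scg2 and Chgb share the whole element. Scg2 was higher in skin than in muscle neurons and Chgb did not pass the test, as the values below show. A match of letters is a description and no evidence of binding.

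The array values are log2 expression, so a difference of 1 is a doubling, and levels of different genes are not compared because each probe set has its own response. The median over all probe sets ran from 2.65 to 2.92 by array. The SD over genes was 1.66 to 1.80 on 5 of the 6 paw arrays, 1.42 on saline paw replicate 1 and 1.28 to 1.55 on muscle arrays, so paw arrays were more spread out and 1 stood apart from its group. Markers of sensory neurons in general, such as Tubb3 and Snap25, were present in every group. The mean over 12 of them ran from 7.26 to 8.39 in saline paw, 8.10 to 8.31 in CFA paw, 6.76 to 7.26 in saline muscle, 6.60 to 7.10 in CFA muscle and 6.46 to 7.38 in acid muscle. Of the 12, 2 were called higher in saline paw than in saline muscle, where 1.87% of all genes were. In CFA paw 7 were called higher than in CFA muscle, where 5.75% of all genes were, and 0 were lower in either pair. As deposited, all 12 differences were above 0 in both pairs. The mean over 10 of 12 listed satellite glia markers was 5.36 to 6.01 in paw arrays and 5.41 to 5.97 in muscle arrays. As deposited, 0 of them were called in either pair. The mean over 10 of 12 listed Schwann cell markers was 4.87 to 5.01 in paw arrays and 4.80 to 6.22 in muscle arrays. Of these, 0 were called in the saline pair and 2 were lower in the CFA pair, where 0.667% of all genes were. Their median differences were −0.56 and −0.94, with 2 and 3 of 10 above 0. After quantile normalization the medians were −0.85 and −1.24, with 0 and 2 above 0. The mean over 12 endothelial and mural markers was 2.79 to 3.17 in paw arrays and 3.09 to 3.92 in muscle arrays. Of these 0 were called, but 0 of 12 differences were above 0 in either pair (medians −0.38 and −0.51), and 1 and 0 after quantile normalization. Macrophage markers lay mostly below the dim limit of 2.44, set from olfactory receptor genes, with 4 of 12 above it. After quantile normalization, which gives all arrays the same distribution of values, the median difference of the 12 neuron markers between skin and muscle was 0.021 in saline and 0.22 in CFA mice, against 0.54 and 1.09 as deposited. Of these 12 differences, 6 and 9 were then above 0. Of the satellite glia markers, 1 was then called lower in each pair, where 0.662% and 1.09% of all genes were. Beyond these scalings, the part of the markers in the results below was not tested.

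As deposited, the classical peptides and 2 granins read higher in skin than in muscle samples in both pairs. The 12 general neuron markers were higher too, with a median difference of 0.54 in saline and 1.09 in CFA mice. Whether the peptide differences go beyond that shift was not tested. In saline mice Tac1, Scg2, Vgf and Calcb were higher in skin, by 1.80-fold to 4.26-fold, and in CFA mice Chga was higher as well. Chgb and Scg3 did not pass the test in either pair. Differences were tested in limma with a model of 5 group means over all 15 arrays and an adjusted p under 0.05 over all genes. Each SE, interval and p therefore rests on a spread pooled over the 5 groups, not on the compared groups alone. For Calcb the SD was 0.8146 in saline paw and 0.0675 in CFA paw, with the same SE of 0.285 in both pairs. The pooled SE is thus small beside the scatter of the saline paw arrays. In saline paw against saline muscle 4 of 7 members were called higher, where 1.87% of all genes were, and in CFA paw against CFA muscle 5 of 7, where 5.75% were. The median difference of the members was 1.19 and 1.63, beside −0.016 and −0.041 over all genes. The differences of these pairs share no arrays, but their tests share the pooled spread and so are not independent. The skin groups were sorted for the CGRP reporter and the muscle groups against it, and the members were chosen with earlier results known. The counts are therefore descriptions and no independent test of enrichment.

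**Figure D1:**
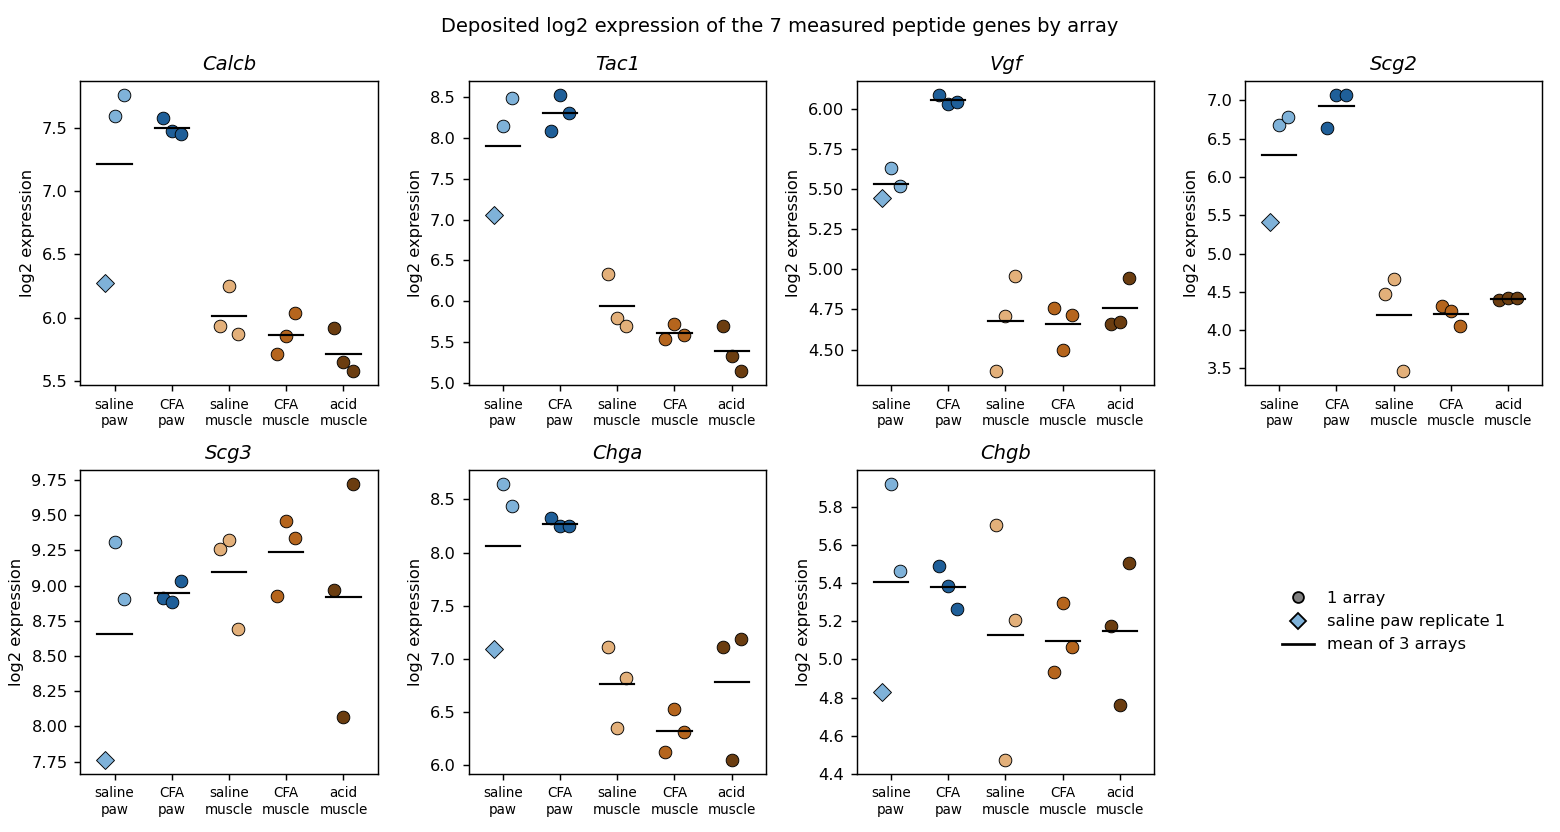
Deposited log2 expression of the 7 measured genes on each array, by group, with a bar at the mean of 3 arrays and a diamond for saline paw replicate 1; each panel has its own scale, which does not start at 0. Skin arrays sit above all muscle arrays for Calcb, Tac1, Vgf and Scg2, while the groups overlap for Scg3 and Chgb.

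Tac1, the precursor of substance P and neurokinin A, was 7.05, 8.15 and 8.49 in saline paw, 8.09, 8.53 and 8.31 in CFA paw, 6.34, 5.79 and 5.70 in saline muscle, 5.54, 5.72 and 5.58 in CFA muscle, and 5.70, 5.32 and 5.14 in acid muscle. All skin arrays were above all muscle arrays, and saline paw replicate 1 was the lowest of the skin arrays. In saline mice the log2 difference was 1.95 ± 0.294 (SE, n = 3 and 3), 3.88-fold, with an adjusted p of 0.00505 in limma. In CFA mice it was 2.70, or 6.48-fold (95% interval 2.07 to 3.32, adjusted p = 0.00021 in limma). By mean level the order was CFA paw, saline paw, saline muscle, CFA muscle, acid muscle, and of these neighbours saline paw and saline muscle alone did not overlap.

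Calcb, which encodes β-CGRP, was 6.28, 7.60 and 7.76 in saline paw and 7.58, 7.47 and 7.45 in CFA paw. In muscle neurons it was 5.93, 6.25 and 5.87 with saline, 5.71, 5.86 and 6.04 with CFA, and 5.92, 5.65 and 5.58 with acid. All skin arrays were above all muscle arrays, saline paw replicate 1 by the narrowest margin and the other 5 skin arrays by a wide one. The difference was 1.19 ± 0.285 in saline mice (SE, n = 3 and 3), 2.29-fold, with an adjusted p of 0.0464 in limma, and without saline paw replicate 1 it was 1.66 (adjusted p = 2.2e-05). Leaving out any 1 of the other 5 arrays of the pair ended the call (adjusted p of 0.0971 to 0.253), as did centring the arrays on their medians (0.0838). In CFA mice it was 1.63 (95% interval 1.02 to 2.24), 3.10-fold, with an adjusted p of 0.00417 in limma. Calcb ordered the groups as Tac1 did. Whether its probes also detect the similar Calca transcript was not tested.

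Scg2, secretogranin II and precursor of secretoneurin, was among the members with the widest gap between skin and muscle, beside Tac1. It was 5.42, 6.67 and 6.78 in saline paw and 6.63, 7.07 and 7.06 in CFA paw. In muscle neurons it was 4.48, 4.66 and 3.46 with saline, 4.32, 4.25 and 4.05 with CFA, and 4.40, 4.42 and 4.41 with acid. Every skin array was above every muscle array, and the saline muscle arrays were the most scattered of the muscle groups because replicate 3 was low. The difference was 2.09 ± 0.331 in saline mice (SE, n = 3 and 3), 4.26-fold, adjusted p = 0.00688 in limma, and without saline paw replicate 3 the adjusted p was 0.0525. In CFA mice it was 2.72 (95% interval 2.01 to 3.42), 6.57-fold, adjusted p = 0.000422 in limma. The order of means was CFA paw, saline paw, acid muscle, CFA muscle and saline muscle, and the first pair and the last pair of these overlapped.

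Vgf, a granin whose fragments act as peptides in pain pathways, was the member least scattered in saline paw, with an SD of 0.094 where the others had 0.55 to 0.85. It was 5.44, 5.63 and 5.52 in saline paw and 6.09, 6.03 and 6.04 in CFA paw. In muscle neurons it was 4.37, 4.71 and 4.96 with saline, 4.76, 4.50 and 4.72 with CFA, and 4.66, 4.67 and 4.95 with acid. Skin and muscle arrays did not overlap, and saline paw replicate 1 lay close to its group. The difference was 0.85 ± 0.152 in saline mice (SE, n = 3 and 3), 1.80-fold, adjusted p = 0.0114 in limma, and 1.40 in CFA mice (95% interval 1.07 to 1.72), 2.63-fold, adjusted p = 0.00021. The order of means was CFA paw, saline paw, acid muscle, saline muscle and CFA muscle, with no overlap among the first 3 groups and overlap among the muscle groups. The saline call was lost without saline paw replicate 2 (adjusted p = 0.0777) and without replicate 3 (0.0681). Across all genes, 487 (2.44%) had all 6 skin arrays above all 9 muscle arrays, and 4 of the 7 members, Calcb, Tac1, Vgf and Scg2, were among them.

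Chga, chromogranin A, a main matrix protein of dense-core vesicles, was 7.09, 8.65 and 8.44 in saline paw and 8.32, 8.25 and 8.25 in CFA paw. It was 7.11, 6.35 and 6.82 in saline muscle, 6.12, 6.52 and 6.31 in CFA muscle, and 7.11, 6.05 and 7.19 in acid muscle. Of the 6 skin arrays 5 were above every muscle array, and saline paw replicate 1 lay inside the muscle range. The saline difference was 1.30 ± 0.363 (SE, n = 3 and 3) with an adjusted p of 0.0829 in limma, and without that array it was 1.78 (adjusted p = 0.00101). In CFA mice Chga was higher in skin by 1.96, or 3.88-fold (95% interval 1.18 to 2.73, adjusted p = 0.00601 in limma). The order of means was CFA paw, saline paw, acid muscle, saline muscle and CFA muscle, and each group overlapped the next.

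Chgb, chromogranin B, was 4.83, 5.92 and 5.47 in saline paw, 5.49, 5.38 and 5.26 in CFA paw, 5.71, 4.47 and 5.21 in saline muscle, 4.93, 5.29 and 5.07 in CFA muscle, and 5.18, 4.76 and 5.51 in acid muscle. All 5 groups overlapped, with means from 5.10 in CFA muscle to 5.41 in saline paw. The difference of skin from muscle was 0.28 in saline mice (95% interval −0.37 to 0.92, adjusted p = 0.672 in limma) and 0.28 in CFA mice (−0.36 to 0.93, adjusted p = 0.63), so the intervals allow a difference close to a doubling upwards. Its sign turned with quantile normalization, to −0.12 and −0.15. It also turned with array SD as a covariate, to −0.30 and −0.40.

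Scg3, secretogranin III, which tethers granin cargo to the vesicle membrane, was the member whose result depended most on the scaling. As deposited it was 7.76, 9.31 and 8.91 in saline paw, 8.91, 8.89 and 9.03 in CFA paw, 9.26, 9.33 and 8.69 in saline muscle, 8.93, 9.46 and 9.34 in CFA muscle, and 8.97, 8.06 and 9.73 in acid muscle. The groups overlapped, with means from 8.66 in saline paw to 9.24 in CFA muscle, and the low arrays, saline paw replicate 1 and acid muscle replicate 2, were also less spread than the others of their groups. The difference was −0.44 in saline mice (95% interval −1.27 to 0.40, adjusted p = 0.603 in limma) and −0.30 in CFA mice (−1.13 to 0.54, adjusted p = 0.698).

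Once the spread of the arrays was evened out, Scg3 separated skin from muscle in the direction opposite to Tac1. The array SD itself differed between skin and muscle, and among paw arrays saline paw replicate 1 alone lay in the muscle range. An effect of the rescaling on Scg3 therefore cannot be told apart from a difference between the tissues. After quantile normalization the 6 skin arrays lay at 8.03 to 8.40 and the 9 muscle arrays at 9.14 to 9.89, with no overlap, as for 265 genes (1.33%) in that direction. The difference was −1.48 ± 0.142 in saline mice (SE, n = 3 and 3, adjusted p = 9.31e-05 in limma), where 0.662% of all genes were called lower, and −1.49 in CFA mice (adjusted p = 5.42e-05), where 1.09% were. Without saline paw replicate 1, a check added after seeing the data, the quantile-normalized saline difference was −1.40 (adjusted p = 0.000376). With array SD as a covariate the Scg3 difference was −1.42 (adjusted p = 0.00167, with 1.03% of genes called lower) and −1.47 (adjusted p = 0.00143, with 1.06%). Within groups, Scg3 followed the array SD with r = 0.94 over 15 arrays, given as a description.

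**Figure D2:**
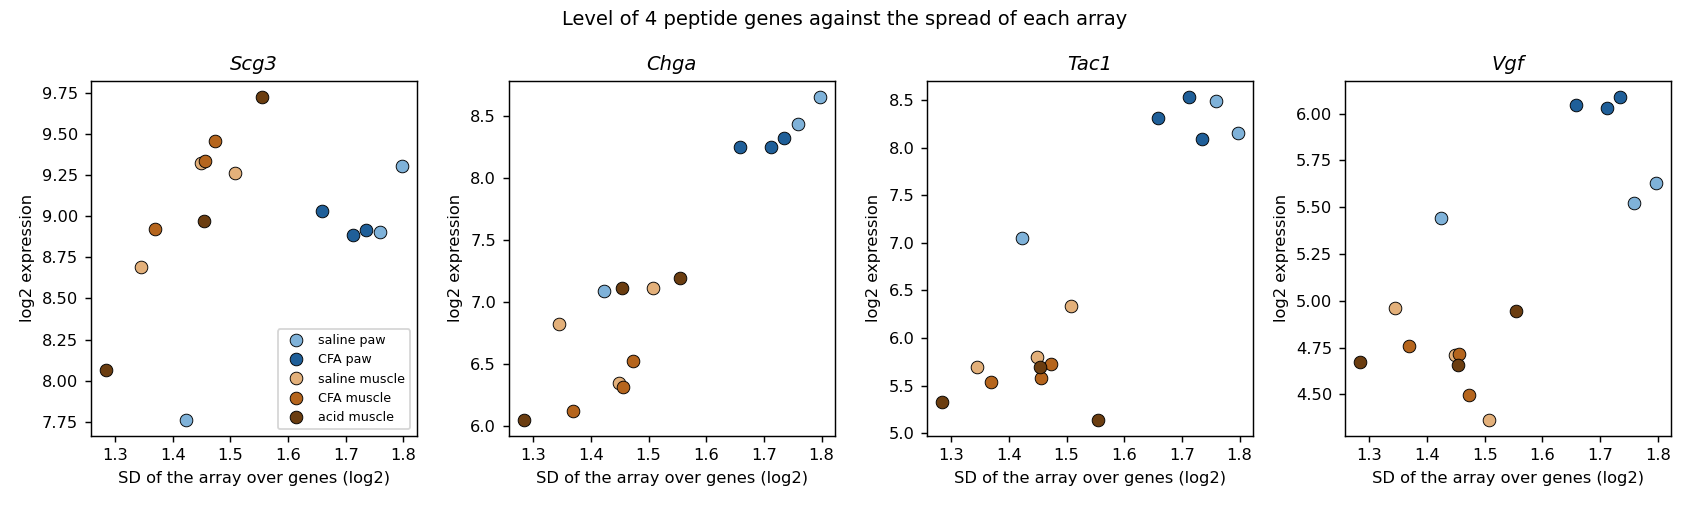
Log2 expression of Scg3, Chga, Tac1 and Vgf on each of 15 arrays against the SD of that array over 19938 genes, coloured by group. Within groups Scg3 follows the SD (r = 0.94), and the 5 paw arrays with an SD of 1.66 to 1.80 lie to the right of the muscle arrays at similar Scg3 levels. Vgf has r = 0.045 within groups.

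The other members kept their direction when the spread was evened out, except Chgb. After quantile normalization Tac1 (1.37) and Scg2 (1.73) were called higher in saline skin neurons, and 1.07% of all genes were. Calcb (0.62, adjusted p = 0.105) and Vgf (0.51, adjusted p = 0.288) were not, and Chga was at 0.63 (adjusted p = 0.164). In CFA mice the same scaling left all 5 called higher, where 2.39% of genes were: Calcb at 0.84, Tac1 at 1.85, Vgf at 0.89, Scg2 at 2.16 and Chga at 1.06. Calcb, Tac1, Scg2 and Chga then had all skin arrays above all muscle arrays, as 2.27% of genes did, and Vgf overlapped by little (5.14 to 5.75 in skin, 4.40 to 5.25 in muscle). With array SD as a covariate the CFA calls of Calcb (0.97, adjusted p = 0.0674) and Chga (0.93, adjusted p = 0.0558) were lost. In saline mice that covariate left Tac1, Scg2 and Vgf (0.84, adjusted p = 0.0284 in limma) among 164 genes called higher. Calcb (0.64, adjusted p = 0.216) and Chga (0.44, adjusted p = 0.389) were not called there. Over all genes, quantile normalization moved the saline calls from 373 higher and 34 lower to 213 and 132, and array SD as a covariate to 164 and 206. For the CFA pair they moved from 1146 and 133 to 477 and 218, and to 232 and 212. When only the 6 arrays of the saline pair were fitted, 0 genes were called, with adjusted p of 0.191 to 0.345 for the 4 members.

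**Figure D3:**
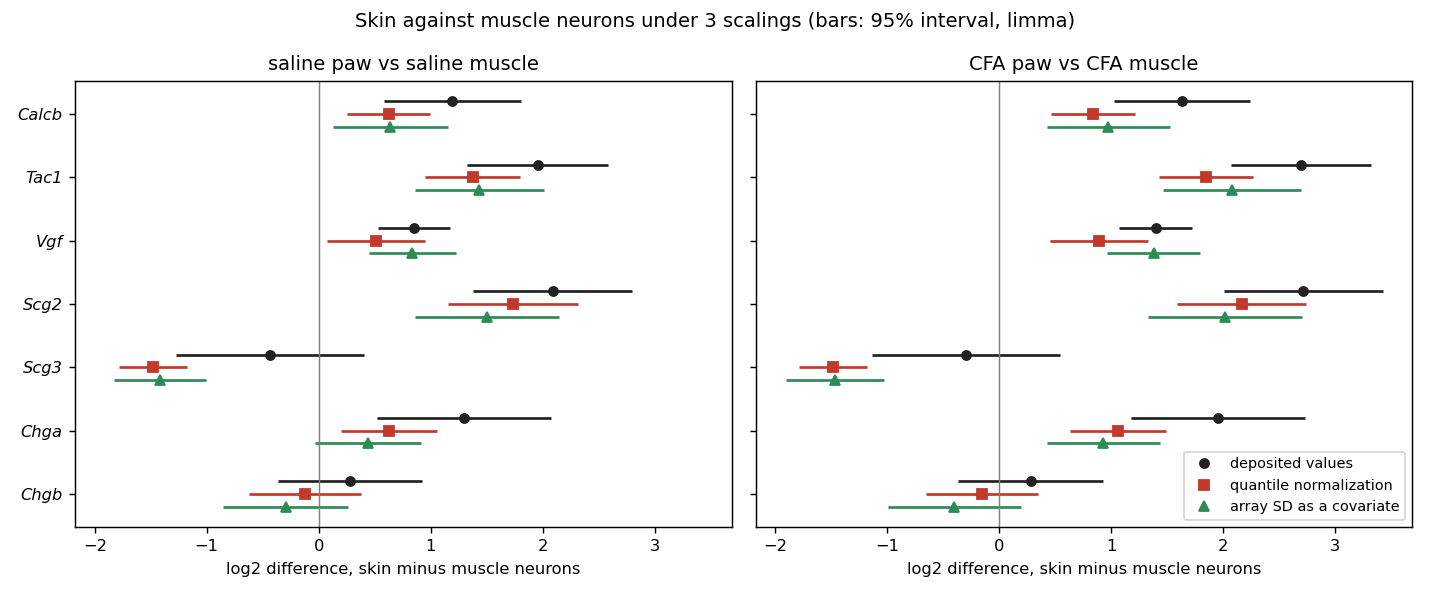
Log2 difference of skin minus muscle neurons for each member in saline mice (left) and CFA mice (right), with 95% intervals from limma, for the deposited values, after quantile normalization and with array SD as a covariate. The intervals of Tac1, Scg2, Calcb and Vgf lie above 0 under all 3 scalings, but are not adjusted for the number of genes. Scg3 lies at −0.44 and −0.30 as deposited and at −1.48 and −1.49 after quantile normalization.

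The next question was whether inflammation of the paw changed the peptide genes. No gene was called in CFA paw against saline paw (0 of 19938, 0%, in limma). An unadjusted p under 0.05 in limma was found for 241 genes (1.21%), a smaller share than that threshold passes when no gene differs. With array weights, which trust scattered arrays less, 125 genes were called. Vgf came nearest among the members. Its 3 CFA paw arrays, at 6.03 to 6.09, were all above the 3 saline paw arrays, at 5.44 to 5.63, in the deposited values. After quantile normalization the groups overlapped, with CFA paw at 5.65 to 5.75 and saline paw at 5.71, 5.16 and 5.14, where the high array was replicate 1. Its difference was 0.52 ± 0.152 (SE, n = 3 and 3; 95% interval 0.20 to 0.85), 1.44-fold, which ranked 9 of 19938 genes by p, and the adjusted p was 1.00 in limma. As deposited it was 0.48 to 0.57 when any 1 array of the pair was left out, and with array weights it was 0.52 with an adjusted p of 0.03. After quantile normalization it was 0.35, and 0.54 when saline paw replicate 1 was left out before normalizing, neither called. Over all genes 344 (1.73%) had all CFA paw arrays above all saline paw arrays as deposited, and of the 7 members Vgf was the 1 among them.

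The other members had differences that moved with saline paw replicate 1. Scg2 differed by 0.63 (95% interval −0.079 to 1.34) with all arrays and by 0.19 without that array. Tac1 differed by 0.41 (−0.22 to 1.04) and by −0.010 without it. For Calcb the values were 0.29 and −0.18, for Scg3 0.29 and −0.16, for Chga 0.21 and −0.27, and for Chgb −0.026 and −0.32.

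**Figure D4:**
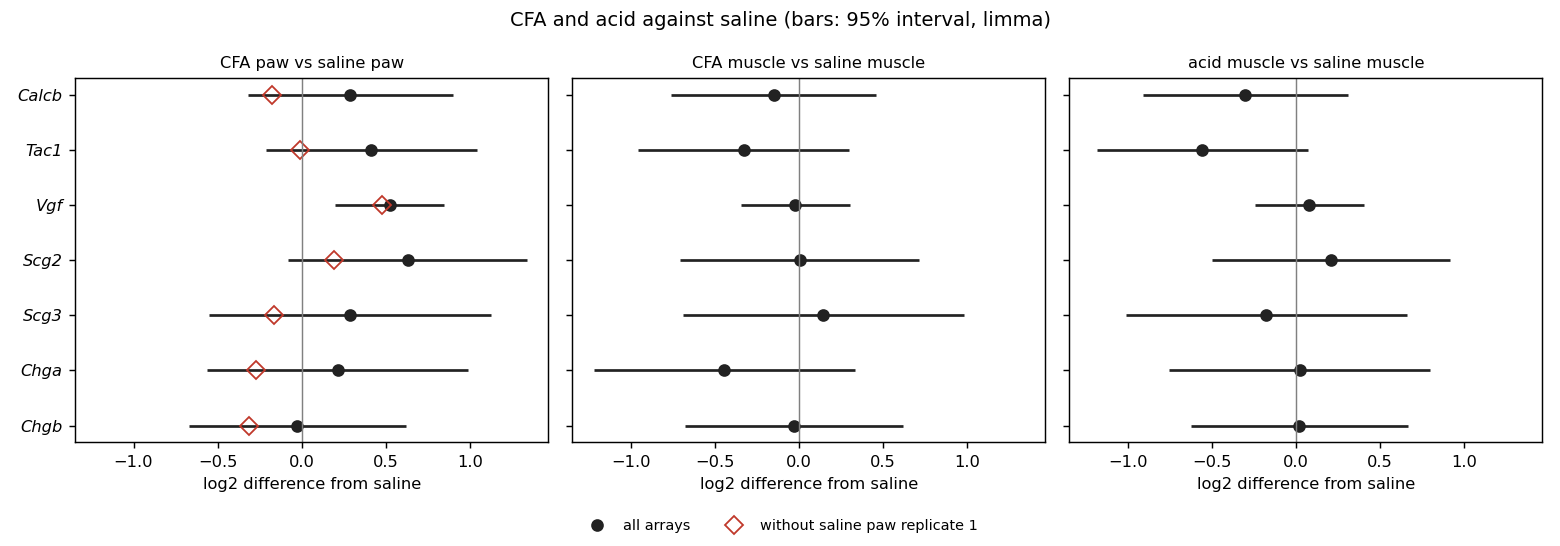
Log2 difference from the saline group of the same tissue for each member, with 95% intervals from limma (black), and, for CFA paw, the value without saline paw replicate 1 (open diamonds). With the deposited values Vgf in CFA paw, at 0.52, is the 1 point whose interval of 0.20 to 0.85 lies off 0.

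In muscle neurons neither injection gave a called gene. For CFA muscle against saline muscle 0% of genes passed (518, or 2.60%, with an unadjusted p under 0.05 in limma), and the members' median was −0.029. Chga was at −0.44 (95% interval −1.22 to 0.33), Tac1 at −0.33, Calcb at −0.15, Scg3 at 0.15, Chgb at −0.029, Vgf at −0.021 and Scg2 at 0.0045. For acid muscle against the same saline arrays 0% of genes passed (568, or 2.85%, unadjusted). Tac1 was at −0.56 (95% interval −1.18 to 0.072), Calcb at −0.30, Scg2 at 0.21, Scg3 at −0.17, Vgf at 0.080, Chga at 0.022 and Chgb at 0.020. The arrays of the saline group entered both comparisons.

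The CFA effect in paw minus the CFA effect in muscle was tested directly, since a value in 1 tissue alone does not show that tissues differ. No gene passed (0%), and 325 (1.63%) had an unadjusted p under 0.05 in limma. Vgf differed by 0.54 (95% interval 0.084 to 1.00, adjusted p = 1.00), the 1 interval among the 7 that lay off 0, and by 0.38 after quantile normalization. Tac1 was at 0.74 (−0.15 to 1.63), Chga at 0.66, Scg2 at 0.63, Calcb at 0.44, Scg3 at 0.14 and Chgb at 0.0024. Without saline paw replicate 1 all 7 were lower: Vgf was at 0.50, Tac1 at 0.32, Scg2 at 0.19, Chga at 0.17, Calcb at −0.029, Scg3 at −0.31 and Chgb at −0.29.

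The machinery that makes and loads these peptides was followed in a list of 26 processing and dense-core vesicle genes, 24 of them measured. In saline mice 3 were higher in skin and 0 lower, with a median of 0.52, where 1.87% of all genes were higher and 0.171% lower. In CFA mice 8 were higher and 0 lower, with a median of 0.97, where 5.75% and 0.667% of all genes were. Ptprn, the vesicle membrane protein IA-2, was higher by 1.71 (adjusted p = 0.00853 in limma) and 2.30 (adjusted p = 0.000502). Rab3a, a vesicle GTPase, was higher by 1.32 and 1.71, and Furin, a protease of the secretory pathway, by 0.67 and 0.96, with the saline call lost under both scalings (adjusted p of 0.114 and 0.142). In CFA mice Pcsk1n, the inhibitor of prohormone convertase 1, was higher by 1.71, Ptprn2 by 0.98 and Ica1 by 1.08. The carboxypeptidase Cpe, which trims the cut peptides, was at −0.37 and −0.17, and the amidating enzyme Pam at −0.0014 and 0.72. None of these was called with the deposited values, and values of these genes under the other scalings are not given here. The list moved with the scaling. Quantile normalization left 2 higher and 2 lower in saline mice (median 0.084), where 1.07% and 0.662% of all genes were. It left 3 and 2 in CFA mice (median 0.22), where 2.39% and 1.09% were. With array SD as a covariate the medians were −0.093 and 0.019. Ptprn kept its calls in both pairs under both scalings, at 1.10 to 1.67. Rab3a lost its call with array SD as a covariate in saline mice (0.56, adjusted p = 0.143), and Pcsk1n, Ptprn2 and Ica1 lost theirs under both.

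**Figure D5:**
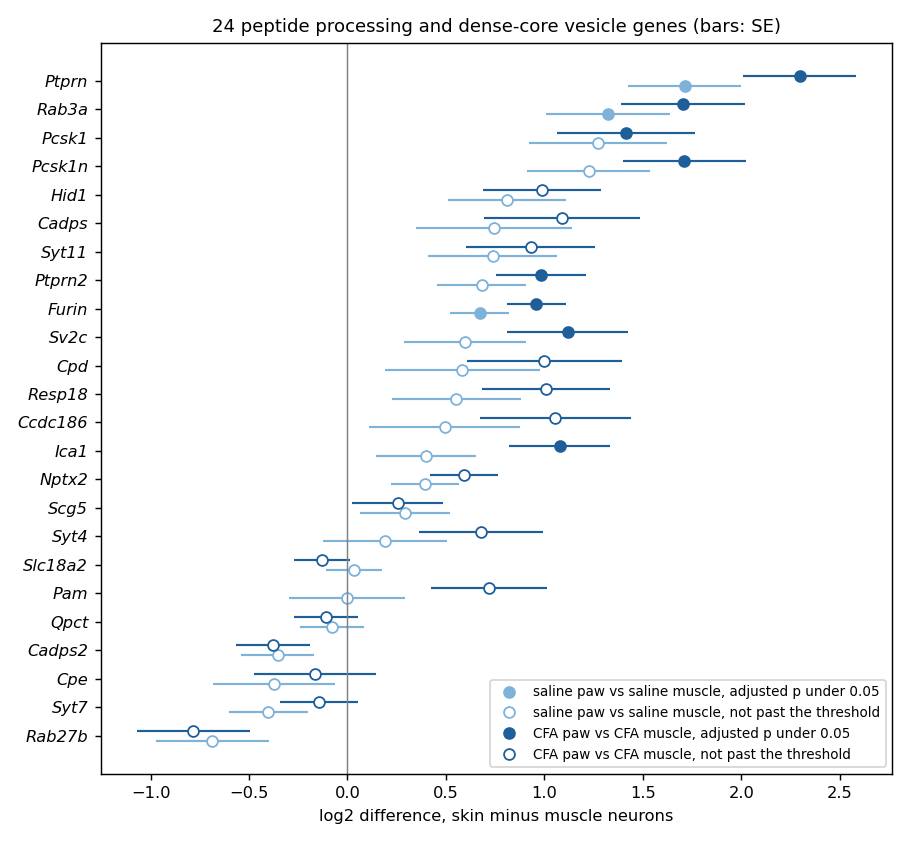
Log2 difference of skin minus muscle neurons for 24 genes of peptide processing and dense-core vesicles, in saline mice (light) and CFA mice (dark), with SE bars; filled points have an adjusted p under 0.05 in limma. The filled points, 3 in saline mice and 8 in CFA mice, all lie to the right of 0.

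Few receptor genes for the peptides were above the dim limit: 3 of 9 CGRP and tachykinin receptor genes were, and 0 were called in either pair. Those above it, by mean over the arrays, were Ramp2, Ramp3 and Crcp, which encode accessory proteins. Calcrl, Calcr, Ramp1 and the tachykinin receptor genes were not. Among 23 other sensory neuron peptides, Adcyap1, the precursor of PACAP, was higher in skin by 1.64 (adjusted p = 0.00728 in limma) and 3.24 (adjusted p = 4.44e-05). Nppb, a natriuretic peptide of itch neurons, was lower in skin, with differences of −1.02 (adjusted p = 0.004) and −1.41 (adjusted p = 0.000196), and both genes kept these calls under both scalings. Nppb averaged 2.61 in saline paw and 2.48 in CFA paw, just above the dim limit, so the size of its differences is uncertain. In CFA mice Nmb (2.10) and Gal were called higher as well, but not with array SD as a covariate. Gal averaged 5.13 in CFA paw and 2.39 in CFA muscle, where it was below the dim limit, so no exact size is given for it. The list's median was −0.26 and −0.15, and 7 and 8 of the 23 differences were above 0. Of 13 measured markers of peptidergic nociceptors 7 and 8 were higher in skin (1.87% and 5.75% of all genes), with 0 lower. Markers of large myelinated neurons, 14 measured, had 2 and 3 higher beside the same shares, and 0 lower. Their median differences were 0.56 and 0.84, and after quantile normalization 0 were called in either pair. Of 10 measured markers of non-peptidergic neurons 2 and 3 were lower (0.171% and 0.667% of all genes), with 0 higher, and 7 and 8 were lower after quantile normalization (0.662% and 1.09%). In the CFA and acid comparisons 0 genes of any of these lists were called.

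Over the 15 arrays Tac1 and Calcb had r = 0.97 (0.80 with group means removed) and Tac1 and Scg2 had r = 0.96 (0.77). Vgf had r = 0.88 with Tac1, 0.90 with Scg2 and 0.87 with Calcb, but −0.31, −0.24 and 0.099 with group means removed. By contrast Scg3 had r = −0.12 with Tac1. Chga and Chgb had r = 0.70, and 0.88 once group means were removed. These correlations are descriptions: the arrays share group differences and a spread that the levels follow, with r against array SD of 0.90 for Calcb, 0.86 for Tac1, 0.87 for Scg2, 0.94 for Chga, 0.75 for Vgf, 0.70 for Chgb and 0.34 for Scg3. Within groups, r with array SD was 0.045 for Vgf.

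The genes outside the set with the most similar pattern over the 15 arrays were found by Pearson r. For Tac1 they were Cyb5r3 (0.99), Kit (0.98) and Aplp1 (0.98), and for Calcb Nrbp2 (0.99), Acot7 (0.98) and Cyb5r3 (0.98). Scg2 was nearest to the potassium channel gene Kcnq5 (0.98), then Dclk1 and Dbpht2, and Chga to Cadm3 (0.99), Tpgs2 and Babam1. Vgf was nearest to the prokineticin receptor gene Prokr2 (0.96), then Ctxn1 and Smr2, but with group means removed its r with Prokr2 was 0.22. Scg3 was nearest to Plcb3 (0.93), Kcnip4 (0.92) and Cpe (0.92), and its r with Cpe was 0.95 within groups. Chgb was nearest to Pon2 (0.92), Pik3r3 (0.90) and Slc17a7 (0.90).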

How the data were processed

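The authors deposited log2 expression for each probe set. RMA and Partek, without versions, are named in the submitters' processing notes, and log2 was inferred from the range of the values. RMA normalization across arrays was used as deposited, and per the labels 50 ng of RNA was amplified per sample. Of 35556 probe sets, 21789 had 1 gene symbol, 1621 several and 12146 were not named in the table used; those with 1 symbol gave 19938 genes, and the probe set with the highest mean was used for 999 genes with several. A level counted as dim up to the 95th percentile of 1194 olfactory and vomeronasal receptor genes.

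Groups came from the sample titles. limma 3.58.1 in R 4.3.3 fitted 5 group means to 15 arrays (10 residual degrees of freedom, prior 4.325), with two-sided tests and Benjamini-Hochberg adjustment over all genes. p-values rest on the spread between biological replicates, pooled over the 5 groups, and the number of arrays limits the precision. The fit was tried on simulated data with independent noise for each gene, which does not hold the spread that genes of an array share. The simulation therefore cannot show how far the calls here depend on single arrays. Members, lists and tests were chosen with earlier results of these data known. Named genes are the members, up to 6 called genes per pathway list and comparison, and 3 similar genes per member; Cpe and Pam were named after their values were seen. Alternatives were array scaling, array SD, weights, prior, filter, probe set mean, threshold, samples fitted, replicate block and leaving out each array. Replicate numbers were not treated as pairs.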

Additional observations from a re-analysis of the deposited data

How the results depend on the processing

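Among the alternative values computed, 600 kept their direction and their side of the threshold, 64 changed sign, 21 lost a call and 8 gained one; every change of sign was of a difference that had not passed the test. The saline skin and muscle count of 407 genes became 199 with centred arrays, 892 after quantile normalization without saline paw replicate 1, 0 with only the compared arrays, 7379 with array weights, 86 and 896 at adjusted p of 0.01 and 0.10, 316 with the replicate block, and 51 to 3824 with 1 array left out (51 without saline paw replicate 3, 3824 without replicate 1). The CFA skin and muscle count of 1279 became 695 (quantile), 444 (array SD), 3209 (compared arrays), 4054 (weights), 425 and 2067 (thresholds), 1144 (block) and 527 to 832 (1 array out). CFA paw gave 125 with weights, CFA muscle 0 to 8 (8 without CFA muscle replicate 1) and the difference of CFA effects 0 to 1 with 1 array out.

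Signs turned as follows; the cause was not tested. With array SD as a covariate Chgb was at −0.30 (saline pair), −0.40 (CFA pair) and −0.11 (difference of CFA effects), and Scg3 at −0.049 in the last. With quantile normalization these were −0.12, −0.15, −0.034 and −0.0013. Without saline paw replicate 1 as well, CFA paw gave Calcb −0.015, Chga −0.10 and Scg3 −0.0086, the saline pair Chgb −0.038, and the difference of CFA effects Chgb −0.12 and Scg3 −0.076. With array weights CFA paw gave Calcb −0.21, Chga −0.16, Scg3 −0.0024 and Tac1 −0.098, CFA muscle Chgb 0.14 and Scg2 −0.22, acid muscle Scg2 −0.0025, and the difference of CFA effects Calcb −0.026, Chgb −0.26 and Scg3 −0.11. With centred arrays acid muscle gave Chga −0.023 and Chgb −0.025, CFA paw Chgb 0.0092, and CFA muscle Scg2 −0.0091. With 1 array left out, the saline pair gave Chgb −0.050 to 0.57 and Scg3 −0.76 to 0.013. CFA paw gave Calcb −0.18 to 0.56, Tac1 −0.010 to 0.71, Scg3 −0.16 to 0.61, Chga −0.27 to 0.51 and Chgb −0.32 to 0.23. CFA muscle gave Vgf −0.18 to 0.12, Scg2 −0.36 to 0.23, Scg3 −0.054 to 0.30 and Chgb −0.36 to 0.26. Acid muscle gave Vgf −0.077 to 0.22, Scg2 −0.16 to 0.44, Scg3 −0.58 to 0.25, Chga −0.18 to 0.39 and Chgb −0.31 to 0.31. The difference of CFA effects gave Calcb −0.029 to 0.71, Scg3 −0.31 to 0.46 and Chgb −0.29 to 0.33.

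Same-numbered arrays correlated in their deviations from −0.50 to 0.25, and differently numbered arrays from −0.49 to 0.54. Deviations from a mean of 3 arrays are tied to each other, so these values cannot show whether the numbers pair the samples. The labels do not say it either. With the replicate block Calcb had an adjusted p of 0.0612 in limma in the saline pair, and the other called members kept their calls. The quantile normalization without saline paw replicate 1 was chosen after seeing the data.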
